A study of Mus musculus with 8 samples.

Results

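The genes described here are 38 interferon-stimulated genes, read across 7 mouse melanomas that grew without their driving oncogene and 1 control melanoma in which it stayed on. The list was given by name, and a gene counts as measured when some probe that carries its symbol was detected (p under 0.05) in 1 or more of the 8 tumours. Of the 38 genes, 36 had a named probe and 32 were measured, out of 10461 genes measured in all. The probes of Ifih1, Ifit1, Xaf1 and Parp9 were not detected on any array, and no probe is named for Herc6 or Ifi44. Where several probes of a gene were detected, the one with the highest mean was used.

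Interferons are secreted proteins that warn cells of viral and other danger. The type I interferons alpha and beta signal through JAK kinases to a complex that holds STAT2 and IRF9 and binds the interferon-stimulated response element of its target genes, whereas interferon gamma, made mainly by T cells and natural killer cells, acts through the gamma-activated site. The targets encode sensors of foreign RNA, enzymes that block viral growth, and GTPases that take part in defence against intracellular parasites. In tumours these targets are read as a trace of interferon signalling in cancer cells and in the immune and stromal cells around them.

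All 8 tumours arose in FVB/n mice of the genotype DCT-TVA;Ink4a/Arf lox/lox, in which the Dct promoter drives the avian virus receptor TVA in melanocytes. Producer cells of avian viruses were injected under the skin of newborn mice, and Cre from the virus deletes the floxed Ink4a/Arf locus, so the resistant and the control tumours share that loss. The 7 resistant tumours, numbered 1 to 7, carry TRE-NRASQ61R-IRES-Cre with Tet-off. NRASQ61R, a mutant form of the RAS family GTPase NRAS, was turned off in them by doxycycline food given from a tumour volume of 1000 mm3, and they are labelled as resistant to this withdrawal. The control tumour is labelled NRASQ61R On, with standard feed per the protocols, and its description names NRAS-IRES-Cre only. The labels give no ages at collection and do not say whether each tumour had a mouse of its own, so each p-value reflects spread between these samples that may be technical.

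Each tumour was read on 1 bead array, with 11821 to 12851 of 25697 probes detected in the resistant tumours and 12225 in the control. Having 8 arrays, 1 of them a control, limits the precision. Of 7 melanocyte markers, Mitf, Tyr, Tyrp1, Dct and Mlana were not detected on any array, no probe is named for Sox10, and Pmel was detected in 2 resistant tumours and not in the control. The pigment cell markers therefore do not bear out the labelled tissue at the level of RNA. Probes of the same gene did not always move together on 2 arrays. Over 2117 pairs of probes of 1 gene that were detected on all 8 arrays, the second probe lay more than 1 log2 unit under its usual distance from the first in 4.91% of pairs on the array of resistant tumour 7 and in 6.09% on the control array, but in 0.0945% to 0.898% on the other 6. Values for probes of the interferon-stimulated genes, some of which also set tumour 1 apart, are given further on. The sources used here do not say where the probes lie in their transcripts, and the part of this in any difference from the control was not tested.

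Interferon signalling is known to reach its targets through 2 letter patterns, and some promoters of these genes carry them. RefSeq promoter windows (assembly GRCm38.p6, 250 bases before to 50 bases after a gene's start) were at hand for 29 of the 38 genes. The response element was searched as GAAA, any 2 bases and GAAA again, and the gamma-activated site as TTCNNNGAA, each on both strands, and the second reads the same on either strand. The first pattern lay in the windows of 17 of the 29 genes (58.6%), against 3.99% of the 27025 genes in the table. The second lay in 9 of the 29 (31.0%), against 9.55%. A match is a description of letters and not of binding, and a window with no match says only that these letters are not in it. Shown here are the windows of 4 genes among the 6 with the largest spread between resistant tumours. Also shown is 1 of the 2 windows of Irf1, which holds the second pattern alone, while its other window holds neither. Of those 6 genes, Irf7 is not shown because its window holds neither pattern, and no window was at hand for Usp18. Capitals mark the matches, and each window is printed in the direction of its gene.
Ifit3, chr19:34583279-34583578, plus strand: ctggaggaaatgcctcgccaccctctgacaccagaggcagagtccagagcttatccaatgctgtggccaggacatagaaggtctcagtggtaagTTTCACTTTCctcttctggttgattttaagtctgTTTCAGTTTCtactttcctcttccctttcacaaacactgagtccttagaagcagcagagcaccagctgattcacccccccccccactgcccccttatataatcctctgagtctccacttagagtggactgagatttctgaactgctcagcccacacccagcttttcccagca
Isg15, chr4:156200769-156201068, minus strand: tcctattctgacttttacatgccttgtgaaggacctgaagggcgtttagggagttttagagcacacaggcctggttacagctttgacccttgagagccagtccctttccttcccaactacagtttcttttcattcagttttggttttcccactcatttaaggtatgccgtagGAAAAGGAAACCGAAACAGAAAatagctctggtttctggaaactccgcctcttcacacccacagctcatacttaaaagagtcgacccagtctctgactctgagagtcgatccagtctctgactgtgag
Rsad2, chr12:26456403-26456702, minus strand: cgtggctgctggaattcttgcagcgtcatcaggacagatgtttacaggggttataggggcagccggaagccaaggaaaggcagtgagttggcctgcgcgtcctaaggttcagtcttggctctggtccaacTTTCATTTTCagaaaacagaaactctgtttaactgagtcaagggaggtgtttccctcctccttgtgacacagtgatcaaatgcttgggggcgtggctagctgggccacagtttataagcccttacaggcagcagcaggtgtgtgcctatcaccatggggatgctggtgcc
Igtp, chr11:58199306-58199605, plus strand: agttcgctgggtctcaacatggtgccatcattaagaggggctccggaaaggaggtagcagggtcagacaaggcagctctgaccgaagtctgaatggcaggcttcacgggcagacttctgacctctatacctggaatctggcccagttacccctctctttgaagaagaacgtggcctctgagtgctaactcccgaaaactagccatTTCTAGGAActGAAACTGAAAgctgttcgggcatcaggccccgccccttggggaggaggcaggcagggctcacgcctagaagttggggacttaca
Irf1, chr11:53769764-53770063, plus strand: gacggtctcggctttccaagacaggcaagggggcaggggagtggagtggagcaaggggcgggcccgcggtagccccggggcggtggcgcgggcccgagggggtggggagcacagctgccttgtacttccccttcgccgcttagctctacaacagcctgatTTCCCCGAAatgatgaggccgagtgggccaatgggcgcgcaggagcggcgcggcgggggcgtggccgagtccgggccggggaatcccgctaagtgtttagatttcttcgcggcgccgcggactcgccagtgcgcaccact

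In the Isg15 window 3 overlapping matches run as 1 block whose first base lies 78 bases before the start. The Igtp window holds a match of each kind side by side, at 45 bases (gamma-activated site) and 34 bases (response element) before the start. The windows of Eif2ak2, Oas1a, Ifitm3, Bst2 and Irgm2 also hold both kinds.

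For none of the 32 measured genes was the difference between the resistant tumours and the control larger than the spread between resistant tumours could give by limma's test. At an adjusted p under 0.05 (limma, Benjamini-Hochberg over all 10461 genes) 0 members were higher, against 0.00956% of all genes, and 0 were lower, against 0.210%. The smallest adjusted p among them was 0.782 (limma, Irgm1). At an unadjusted p under 0.05, limma gave 0 of the 32, against 8.21% of all genes. The median log2 difference, resistant minus control, was 0.013 over the members and -0.022 over all genes. Mx1 was the 1 member with all 7 resistant tumours above the control, but it was not detected in the control or in 3 of the 7, so this order is partly one of readings below detection. Ifit2 and Irgm1 were the 2 members with all 7 below it. Of all genes, 13.3% had all 7 above and 17.0% had all 7 below.

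The resistant tumours differed from each other far more than their mean differed from the control. The SD among the 7 resistant tumours had a median of 1.14 on the log2 scale over the 32 members and of 0.35 over all genes. Without tumour 6 these medians were 0.641 and 0.304. It was above 1 for 17 of the 32 members (53.1%) and for 8.95% of all genes. The order of the tumours was much the same from gene to gene. Resistant tumour 3 held the highest value of the 8 tumours for 22 of the 32 members, against 10.1% of all genes. Resistant tumour 6 held the lowest for 27 of the 32, against 23.4% of all genes, and 8 of the 32 were not detected in it. Over the 24 members detected on every array, tumour 6 was lowest for 22 and tumour 3 highest for 17. Among the 7297 genes detected on every array, tumour 6 was lowest for 26.3% and tumour 3 highest for 10.0%.

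Set against the control array, the median member differed by 1.26 in resistant tumour 3 on the log2 scale, by -1.06 in tumour 4 and by -1.46 in tumour 6. In tumours 1, 2, 5 and 7 it differed by 0.27, 0.24, 0.02 and 0.37. With the lowest detected probe of each gene, the medians of tumours 4 and 6 were -0.45 and -0.87, and the median of tumour 3 was 1.28. The corresponding medians over all genes lay between -0.06 and 0.01. In tumour 3, 19 members were at least 2-fold above the control (7.70% of all genes) and 0 at least 2-fold below (9.31%). In tumour 6, 20 members were at least 2-fold below the control (13.2% of all genes) and 0 above (11.6%). In tumour 4, 18 were at least 2-fold below (8.68% of all genes) and 0 above (6.68%). Both low tumours shared 16 of these genes, but both counts use the same control array. The share of all genes low in both was not counted. In tumours 1, 2, 5 and 7 at least 2-fold above were 5, 3, 2 and 5 members, against 5.13%, 6.14%, 6.59% and 5.02% of all genes. At least 2-fold below were 1, 0, 1 and 0 members, against 5.28%, 8.10%, 9.0% and 6.51% of all genes, so these 4 tumours lay nearer to the control. Each such count sets 1 array against 1 array and has no replicate check. The control thus lay inside the range of the resistant tumours for 29 of the 32 members, against 69.6% of all genes. In a whole tumour, fewer interferon-responding cells and less of these RNAs per cell cannot be told apart.

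**Figure D1:**
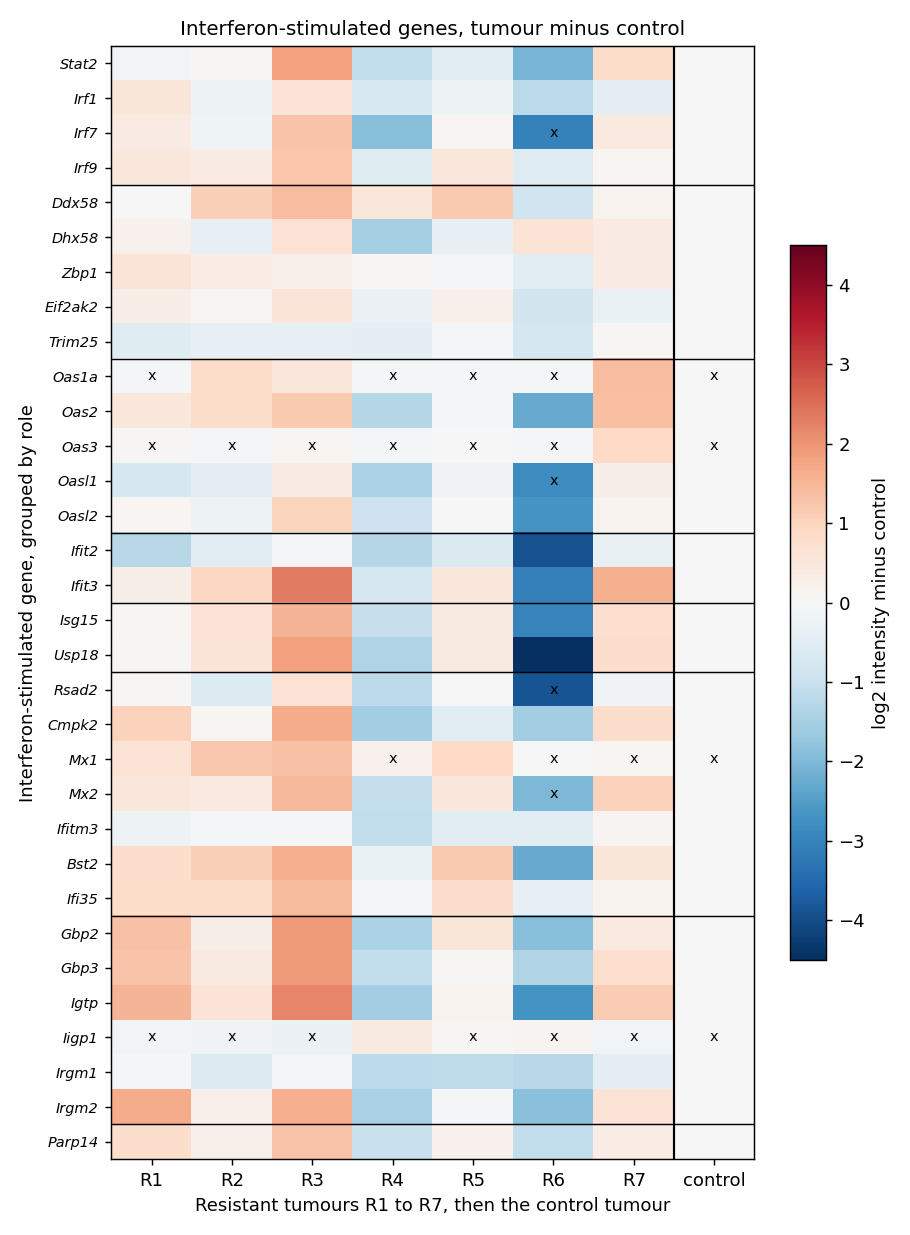
Each cell is the log2 intensity of an interferon-stimulated gene in 1 tumour minus its value in the control, for resistant tumours R1 to R7 (left) and the control itself (right, 0 by construction), with genes grouped by role between black lines. A cross marks a value not detected on that array. The column of R3 is higher than the control for most genes and those of R4 and R6 are lower.

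**Figure D2:**
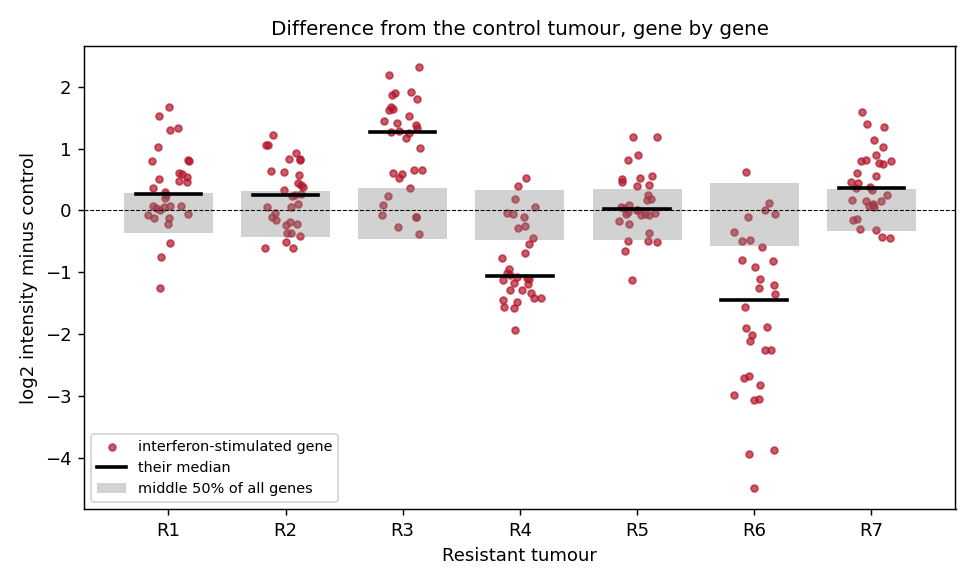
Points are the 32 measured interferon-stimulated genes in each resistant tumour, as log2 intensity minus the control. The black bar is their median and the grey band holds the middle 50% of all 10461 genes. The median is 1.26 in R3, -1.06 in R4 and -1.46 in R6.

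Among the transcription factors, the 4 members shared this order, and each was highest in tumour 3 and lowest in tumour 6. Stat2, a subunit of the complex that type I interferons activate, ranged in the resistant tumours from 5.89 in tumour 6 to 9.81 in tumour 3, with a median of 7.88, against 8.0 in the control. Its DNA-binding partner Irf9 ranged from 8.24 to 10.09 with a median of 9.21, against 8.83 in the control, so the control lay within both ranges. Irf7, the factor that amplifies interferon alpha production, was not detected in tumour 6 and reached 9.13 in tumour 3, with a median of 7.94 over the resistant tumours, against 7.86 in the control. That makes Irf7 at least 6.65-fold lower in tumour 6 than in the control. Irf1, a factor induced strongly by interferon gamma, spread less. It ranged from 11.29 to 13.11 with a median of 12.28, against 12.50 in the control, and its 2 highest tumours were tumour 3 and tumour 1 (13.04). The differences of the 4 means, resistant minus control, went from -0.43 (SE 1.38) for Irf7 to 0.22 (SE 0.61) for Irf9, with limma adjusted p of 0.952 to 0.984.

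Of the sensors of foreign nucleic acid 5 were measured. Ddx58, which encodes the RNA sensor RIG-I, ranged from 5.32 in tumour 6 to 7.61 in tumour 3 with a median of 6.75, against 6.22 in the control, and 6 of the 7 resistant tumours lay above the control. Dhx58, which encodes LGP2, a regulator of RIG-I and MDA5, departed from the common order. Tumour 6 (9.89) was next to tumour 3 (9.92) and tumour 4 was lowest at 7.79, against 9.27 in the control. The kinase gene Eif2ak2 (PKR) ranged from 10.34 to 11.75 with a median of 11.22, against 11.16 in the control. Zbp1, a sensor of Z-form nucleic acid, ranged from 6.75 to 7.83, against 7.23 in the control. Trim25, the ubiquitin ligase that assists RIG-I, ranged from 5.15 to 6.00 with a median of 5.57, against 5.95 in the control. It lay below the control in 6 of 7 resistant tumours, by 0.36 on average (SE 0.31, limma adjusted p = 0.817).

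The OAS enzymes make short RNA chains that switch on RNase L. Oas2 ranged from 5.77 in tumour 6 to 9.37 in tumour 7 with a median of 8.50, against 8.03 in the control. Oasl2, a relative with ubiquitin-like domains, ranged from 7.92 in tumour 6 to 11.61 in tumour 3, against 10.59 in the control, and was 6.37-fold lower in tumour 6 than in the control. Oasl1 reached 8.07 in tumour 3 and was not detected in tumour 6, at least 5.96-fold below the control value of 7.70. Oas1a and Oas3 lay near the detection limit. Oas1a was detected in resistant tumours 2, 3 and 7 at 5.57, 5.29 and 6.15 and not in the control, and Oas3 in tumour 7 alone at 5.49. Oas1a belongs to a family of near-identical mouse genes, and whether its probe reads other copies was not tested.

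The IFIT proteins hold back foreign RNA, and the ISG15 system tags proteins with a ubiquitin-like modifier. Usp18 encodes the enzyme that removes ISG15 and also brakes the type I receptor, and it had the largest SD of any member. It read 10.21, 10.73, 12.01, 8.81, 10.55, 5.66 and 10.95 in resistant tumours 1 to 7, against 10.15 in the control. Of the resistant tumours 5 lay above the control, tumour 4 lay below it and tumour 6 lay furthest below. Usp18 was thus 81.4-fold higher in tumour 3 than in tumour 6, and 22.4-fold lower in tumour 6 than in the control, while the mean difference was -0.30 (SE 1.89, limma adjusted p = 0.980). Isg15 itself read 10.57, 11.12, 12.02, 9.45, 10.88, 7.5 and 11.24 in tumours 1 to 7, against 10.49 in the control. Its mean difference was -0.09 (95% interval -3.22 to 3.03, limma adjusted p = 0.993).

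Ifit3 read 10.07, 10.75, 12.14, 9.06, 10.33, 6.76 and 11.41 in resistant tumours 1 to 7, against 9.82 in the control. As for Isg15, tumour 3 was highest and tumours 4 and 6 were the 2 tumours below the control. Ifit3 was 4.99-fold above the control in tumour 3 and 8.36-fold below it in tumour 6. It has a near-identical neighbour in the mouse genome, and cross-reading was not tested. Ifit2 differed from its relatives in that the control was the highest of the 8 tumours. It read from 5.44 in tumour 6 to 9.28 in tumour 3 with a median of 8.73, against 9.38 in the control, 15.3-fold lower in tumour 6. The mean difference of -1.15 (SE 1.2) did not pass (limma adjusted p = 0.861), and its other detected probe also had all 7 resistant tumours below the control.

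**Figure D3:**
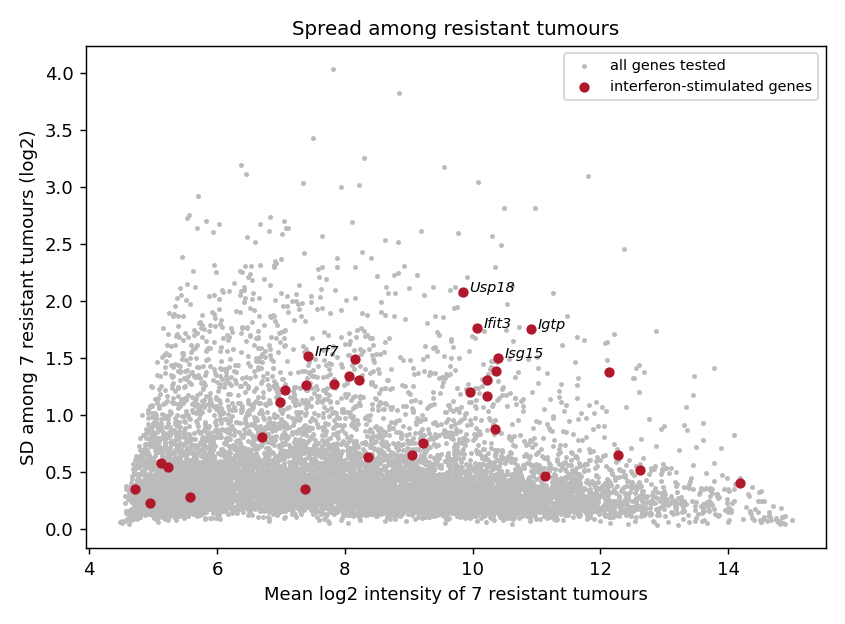
For each of 10461 genes, the SD among the 7 resistant tumours is plotted against their mean log2 intensity, with the 32 interferon-stimulated genes in red. Usp18, Ifit3, Igtp, Irf7 and Isg15, with SDs of 2.08, 1.76, 1.75, 1.51 and 1.5, are named.

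Of the other antiviral effectors, Rsad2 and Cmpk2 are neighbours that encode viperin, a radical enzyme that makes a chain-ending nucleotide, and the kinase that supplies its substrate. Rsad2 read between 7.70 and 9.54 in 6 resistant tumours, against 8.89 in the control, and was not detected in tumour 6, at least 13.6-fold below the control. Cmpk2 was low in both tumour 4 (5.83) and tumour 6 (5.82) and reached 9.06 in tumour 3, against 7.39 in the control. Mx2, a dynamin-like GTPase that blocks viruses, ranged up to 8.40 in tumour 3, against 6.95 in the control, and was not detected in tumour 6. Mx1 was detected in tumours 1, 2, 3 and 5 at 5.21 to 5.94 and not in the control. It was also not detected in tumours 4, 6 and 7, so no fold is given (limma adjusted p = 0.813).

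Bst2, which encodes the virus-tethering protein tetherin, ranged from 7.58 in tumour 6 to 11.46 in tumour 3 with a median of 10.64, against 9.84 in the control. Ifi35 ranged from 7.49 to 9.27 with a median of 8.66, against 7.85 in the control, with 5 of 7 resistant tumours above it (difference 0.51, SE 0.60, limma adjusted p = 0.877). Ifitm3, a membrane protein that stops viral fusion, moved little. It ranged from 13.43 in tumour 4 to 14.64 in tumour 7 with a median of 14.30, against 14.53 in the control, and 6 of the 7 lay below the control. Parp14, an ADP-ribosyl transferase, ranged from 9.15 in tumour 6 to 11.53 in tumour 3, against 10.25 in the control.

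The interferon-induced GTPases take part in defence against intracellular parasites and respond strongly to interferon gamma. Of the 6 measured, 4 (Igtp, Irgm2, Gbp2 and Gbp3) were above the control in tumour 1 as well as in tumour 3, Irgm1 was below it in both, and Iigp1 was detected in neither. Igtp (Irgm3) read 12.25, 11.35, 12.91, 9.15, 10.89, 8.02 and 11.86 in resistant tumours 1 to 7, against 10.72 in the control. It was 4.57-fold above the control in tumour 3, 2.89-fold above it in tumour 1 and 6.5-fold below it in tumour 6. Irgm2 was highest in tumour 1 at 11.92, next to tumour 3 at 11.88, and lowest in tumour 6 at 8.37, against 10.25 in the control. Gbp2, a guanylate-binding protein gene, was high in tumours 1 (13.30) and 3 (13.87) but low in tumours 4 (10.55) and 6 (10.07), against 11.97 in the control.

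Gbp3 followed Gbp2, with tumour 1 at 10.98, tumour 3 at 11.60 and tumour 6 at 8.34, against 9.68 in the control. Irgm1 ranged from 12.04 in tumour 6 to 13.24 in tumour 1 with a median of 12.68, against 13.29 in the control. All 7 resistant tumours lay below the control, by 0.68 on average (SE 0.50, limma adjusted p = 0.782), though on another probe detected on all 8 arrays 4 of the 7 lay above it. Iigp1 was detected in tumour 4 alone, at 5.36.

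The medians of groups of members differed in how tumour 1 compared with tumour 3. In tumour 3 the medians of the ISG15 system (2 genes measured) and of the GTPases (6) lay 1.70 and 1.77 above the control. In tumour 1 they lay 0.07 and 1.31 above it. The medians of the RNA sensors (5) and the other antiviral effectors (7) lay 0.20 and 0.60 above the control in tumour 1. In tumour 3 they lay 0.59 and 1.42 above it. Among members detected in both tumours, tumour 3 was above tumour 1 for 4 of 4 transcription factors, 4 of 5 RNA sensors and 3 of 3 OAS enzymes. The same held for 2 of 2 genes in each of the IFIT and ISG15 groups. It held for 7 of 7 other antiviral effectors, 1 of 1 PARP gene and 3 of 5 GTPases. The 2 other GTPases were near ties. In tumours 1 and 3 Irgm1 read 13.24 and 13.21, and Irgm2 read 11.92 and 11.88. On another Irgm1 probe detected on all 8 arrays tumour 3 (10.71) was above tumour 1 (10.46). Over all members detected in both, tumour 3 was above tumour 1 for 26 of 29, against 4231 of 8180 genes. These are descriptions of single arrays, with no test.

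Genes upstream of the members and other interferon targets were taken from a list of 66 genes, of which 45 were measured, and 0 of these passed (limma, with 3 at an unadjusted p under 0.05). Of 17 interferon genes with a probe, 12 were not detected on any array, Ifnb1 among them. Ifng, which encodes interferon gamma, was detected in tumour 1 at 7.37 and in the control at 6.16, and in no other resistant tumour. Ifna6, of a family of near-identical genes, read 6.4 to 6.91 in the resistant tumours and 6.34 in the control, and Ifna1, Ifne and Ifnz were near the detection limit.

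The receptors did not share the members' order. Ifngr1, the ligand-binding chain of the interferon gamma receptor, was highest in tumour 6 at 12.85, where the members were lowest, and all 7 resistant tumours (9.85 to 12.85, median 10.35) lay above the control value of 9.01. Its mean difference was 1.76 (limma adjusted p = 0.708). Ifnar2, a chain of the type I receptor, ranged from 7.09 to 7.86, against 7.64 in the control, and the probe of Ifnar1 was not detected. Ifngr2, the second chain of the interferon gamma receptor, was lowest in tumour 4 at 7.99 and highest in tumour 1 at 9.93, against 8.93 in the control. Tyk2 and Jak2, kinases bound to these receptors, read 9.20 and 9.64 in tumour 6, against 9.56 and 8.24 in the control. The other measured kinase, Jak1, was lowest of the 8 tumours in tumour 6, at 5.74, against 6.66 in the control. Irf3, the factor that starts interferon production, ranged from 10.97 to 11.37, against 11.24 in the control. Socs3, a feedback brake on JAK signalling, was below the control value of 12.08 in all 7 resistant tumours (10.33 to 11.74), by 1.16 on average (limma adjusted p = 0.603). Of the 8 measured genes listed as brakes, 5 were lowest in tumour 6 (23.4% of all genes) and 3 in tumour 4 (11.5%). Only 1 was highest in tumour 3 and 4 were highest in tumour 1. Their median difference from the control was -1.12 in tumour 6, -0.86 in tumour 4 and 0.05 in tumour 3.

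Antigen presentation genes of MHC class I, which interferon gamma induces through NLRC5, were highest in tumour 1 in 9 of 10 measured cases. Of all genes, 11.6% were highest in tumour 1. Tap1, a subunit of the peptide transporter, was 10.09, 8.97, 6.81 and 6.99 in tumours 1, 3, 4 and 6, against 7.72 in the control. Nlrc5, their activator, was 9.24, 8.31, 6.51 and 6.72 in these tumours, against 8.04 in the control. The exception was Tapbp, with 6.73 for tumour 1, 6.48 for tumour 7 and 8.06 for tumour 3, against 5.95 in the control. Tumour 7 and the control are the arrays on which probes of the same gene diverged most often. The part of this in Tapbp was not tested. The list median lay 1.3 above the control in tumour 1, 1.1 above it in tumour 3, and at -0.61 and -0.45 in tumours 4 and 6.

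Of the 2 measured chemokines that draw T cells through CXCR3, Cxcl9 was only 1.34-fold higher in tumour 1 than in tumour 3, and Cxcl10 was lower in tumour 1. Each comparison sets 1 array against 1 array. Cxcl9, a gamma-type target, was 12.24, 11.82, 7.73 and 7.09 in tumours 1, 3, 4 and 6, against 11.61 in the control. Cxcl10, which type I interferons also induce, was 8.62 and 10.52 in tumours 1 and 3, against 8.61 in the control, and was not detected in tumour 6. Neither passed between the groups (limma adjusted p = 0.831 for Cxcl9 and 0.998 for Cxcl10).

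**Figure D4:**
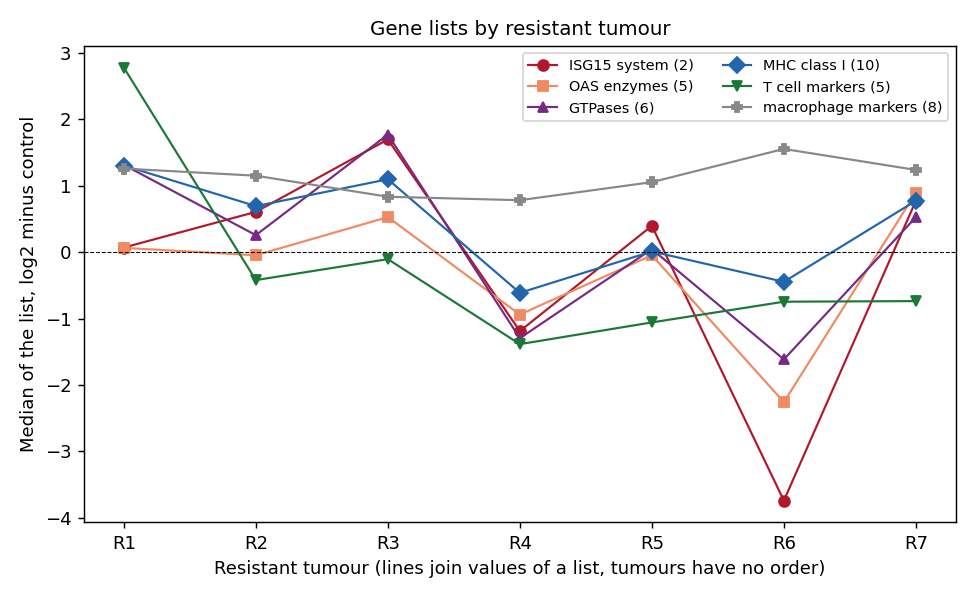
Each point is the median over a list of log2 intensity minus the control, in resistant tumours R1 to R7, with the number of measured genes in brackets. The ISG15 system and the GTPases are near each other in R3 but 0.07 and 1.31 in R1, where the T cell markers are 2.78.

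Markers of immune cells moved with some of these patterns. All 5 measured T cell markers of 8 were highest in tumour 1, against 11.6% of all genes. Cd4 and Cd8a were not detected and no probe is named for Lck. Their summed linear intensity was 5157 in tumour 1 and 233.7 to 663.6 in the other resistant tumours, against 688.2 in the control. Cd3d read 10.12 in tumour 1 and 5.30 to 7.20 in the other 6, against 7.51 in the control. Natural killer cell markers (4 of 6 measured, with Ncr1 and Gzmb not detected) summed to 3923 in tumour 1 and 211.9 to 892.8 in the other 6, against 1156 in the control. Both sums were lowest in tumour 4. In tumour 3 they were 643.2 for T cells and 892.8 for natural killer cells, each below the control. The latter was the highest natural killer sum among the resistant tumours after that of tumour 1.

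Macrophage markers (8 of 11 measured, with Itgam not detected and no probe named for Csf1r or Cd68) summed to 14425 (tumour 3) up to 23861 (tumour 6) in the resistant tumours, against 9540 in the control. By list median tumour 4 was the lowest, at 0.78 above the control, and tumour 6 the highest, at 1.55. Of the 8 genes 6 were above the control in all 7 resistant tumours, against 13.3% of all genes. The other 2, Mrc1 and Cd163, had mean differences of -0.53 and -1.09. Of 5 plasmacytoid dendritic cell markers, cells known for making type I interferon, 4 were measured, but Bst2 is itself a member and Tcf4 is expressed widely. Siglech read 7.07 in tumour 1 and was detected in 4 resistant tumours, against 7.31 in the control, and Ccr9 was not detected. Neutrophil markers (4 of 5 measured) summed to 248.6 in tumour 6 and up to 3131 in the other resistant tumours, against 3391 in the control. Skeletal muscle markers (6 of 6 measured) summed to 25254 in tumour 1, 5838 in tumour 2 and 157.8 to 1580 in the other resistant tumours, against 212.4 in the control. The part of these cells in the members' levels was not tested.

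The difference from the control depended on the probe for several members. Of the 32 members, 11 had another detected probe, 17 probes in all. Several of these were detected on few arrays, so the counts are given for the 6 probes, of 4 members, that were detected on all 8. For 4 of the 6 the sign of the mean difference was opposite to that of the probe used. Tumour 3 was highest on 5 of the 6, and tumour 6 was lowest on 4.

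The other probe of Irf9 read 5.64 in tumour 7, 6.13 in tumour 1 and 5.98 to 8.10 in the other resistant tumours, and was not detected in the control, whereas the probe used read 8.83 there. For Usp18 the probe used gave a difference of -0.30 and another detected on all 8 arrays gave 0.34. The last Usp18 probe was not detected in the control or in tumour 6 and read 5.51 in tumour 7, while tumours 2, 3 and 5 read 8.09, 9.75 and 8.13. Ifit3 gave 0.25 on the probe used and 1.39 and 1.71 on the other 2, neither of which was detected in tumour 6. On the last of these, tumour 1 read 6.05, tumour 7 read 6.20 and tumour 3 read 9.61, against 5.28 in the control. Irf1 had 4 other detected probes. Of the 3 detected on all 8 arrays, 2 gave 1.16 and 1.32 and the third gave -0.015, where the probe used gave -0.23. Relative to the probe used, one of these Irf1 probes lay 5.33 lower in tumour 1, 6.0 lower in tumour 7 and 4.57 lower in tumour 3, against 6.32 lower in the control. For the members, tumour 1 thus also stood apart, beside tumour 7 and the control. With 1 control array these differences from the control have no second sample behind them, and 19 of the 32 members had a single probe.

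**Figure D5:**
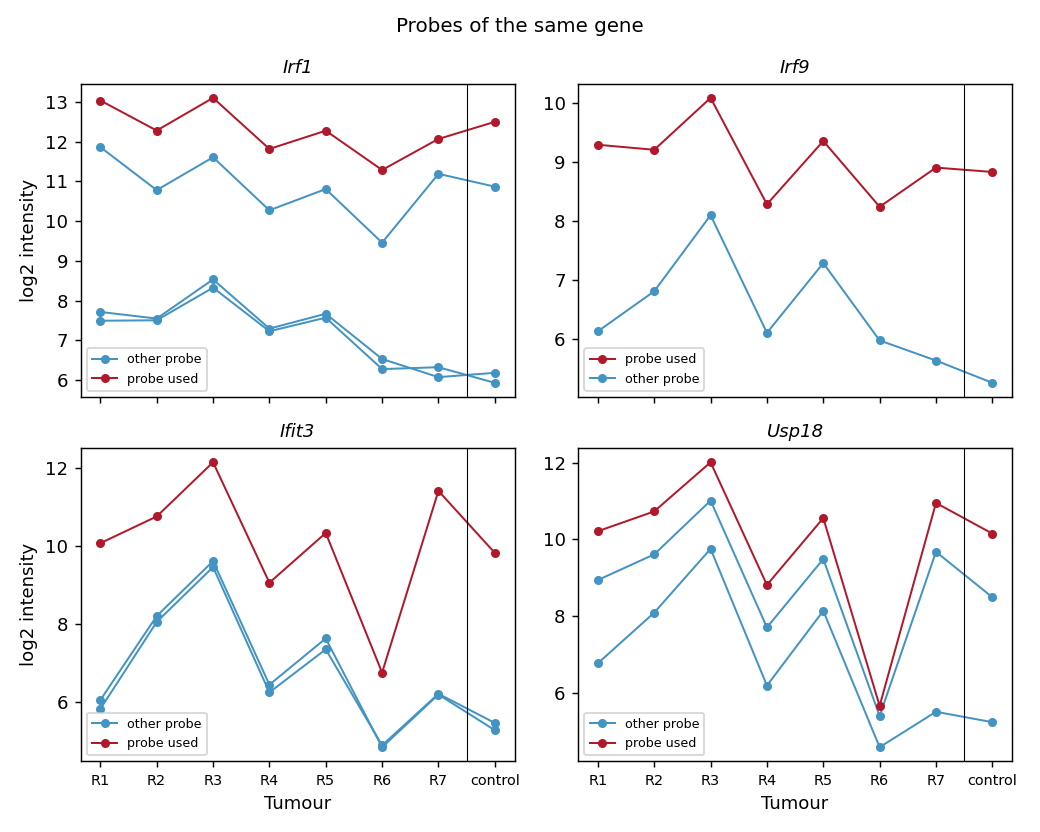
Log2 intensity of each probe detected on at least 6 arrays, for 4 interferon-stimulated genes, in resistant tumours R1 to R7 (left) and the control (right of the line). Red is the probe used and blue the other probes. For each gene at least 1 blue line falls further below red in R7 and in the control than in R3, and R3 is the highest tumour on all plotted probes but 1 of Irf1.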

How the data were processed

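Biotin-labelled RNA copies from 8 mouse melanomas were read on Illumina bead arrays, 1 array a tumour, per the labels' protocols. The deposited tables hold probe intensity on a linear scale, not normalized per the file headers, with a detection p-value per probe and array, and the authors' normalized intensity, whose method the sources used here do not give. The submitters' processing notes name GenomeStudio. Groups come from the sample titles.

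Probes were named from the platform annotation (23978 with 1 symbol, 0 with several and 1719 with none), updated by gene ID (23962 matched). limma's neqc (offset 16) corrected background, quantile normalized and took log2. Kept probes had detection under 0.05 in 1 or more tumours, and the brightest probe on average stood for its gene. The groups were compared by lmFit and eBayes of limma, two-sided, with Benjamini-Hochberg adjustment over 10461 genes. The 6 residual degrees of freedom are those of the resistant tumours, and the control is assumed to vary like them. For folds alone, a value not detected was replaced by the higher of itself and the lowest detected signal of its array. Folds against such a value are given as "at least". The fit, the SDs, the medians and the counts used the values without this replacement. The named-gene rule covered every member. The members and lists were chosen with earlier results of these data known. The fit was tested on simulated data. R 4.3.3 and limma 3.58.1 were used. The alternatives are given in the closing section.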

Additional observations from a re-analysis of the deposited data

Results flagged for a closer look

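Among the 7 resistant tumours, the gap of the highest or lowest tumour to its neighbour, as a share of the whole range, was above Dixon's 95% limit for 3 of the 32 members and 2 of the 45 upstream and other interferon genes. Chance flags about 1 in 20 such groups. For Oas3 (0.813) this restates detection, since it was measured through tumour 7 alone and its other 6 values are below detection, and it says nothing more. Ifit2 stood apart through tumour 6 (0.69), at 5.44 beside 8.09 or more in the other resistant tumours. Rsad2 stood apart through the same tumour (0.594), in which it was not detected. Ifng stood apart through tumour 1 (0.89), and its other 6 resistant values are likewise below detection. Ifngr2, the second chain of the interferon gamma receptor, stood apart through tumour 1 (0.576), at 9.93.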

How the results depend on the processing

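No member passed under any of the 17 alternatives, and the lowest adjusted p over them was 0.495. The members' median difference was -0.19 under median scaling and -0.14 to 0.28 on leaving out 1 tumour, against 0.013 as reported. Tumour 6 was lowest for 25 to 28 members and tumour 3 highest for 20 to 24, except that with detection on all 8 arrays these were 22 and 17 of 24. The number of members with all 7 tumours above the control was 0 under median scaling or with detection on all 8 arrays, and 2 with the mean of probes or with the lowest detected probe, an alternative chosen after seeing the data. The number below it was 1 with either of these probe rules. With the lowest detected probe the members at least 2-fold below the control in tumour 6 were 15, against 20 as reported. Leaving out 1 tumour gave 1 to 2 above (2 without tumour 6) and 2 to 4 below (4 without tumour 7). Over all genes, the number lower was 8 without background correction, 8 with the authors' normalized values, 35 with no detection filter and 1 with detection on all 8 arrays. The number higher was 4 with no filter, 4 with an offset of 50 and 3 with trend and robust variance. Leaving out 1 tumour gave 1 to 8 genes higher (8 without tumour 1) and 5 to 50 lower (5 without tumour 2, 50 without tumour 1). The causes were not tested. Of the 32 members, 22 changed the sign of their difference under at least 1 alternative, and median scaling moved the median of all genes by -0.18. No paired analysis was possible because the control is 1 array with no replicate number.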
